A study of Homo sapiens with 12 samples.

Results

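The response of PRMT6 knockout NT2/D1 cells to all-trans retinoic acid (ATRA) was measured in 6 of the 12 libraries of the series, and all genes were compared between the 3 knockout libraries with ATRA and the 3 untreated knockout libraries. The 6 libraries were taken by the genotype and ATRA given in the sample labels. NT2/D1 is a human pluripotent embryonal carcinoma line, and PRMT6 is an arginine methyltransferase that acts on histone H3 and other proteins. In the knockout cells PRMT6 had been deleted with CRISPR/Cas9, and the labels name 1 knockout line, KO-2. Knockout cells were either left untreated or given 1 µM ATRA for 3 days. The other 6 libraries are CRISPR/Cas9 control cells without and with the same ATRA treatment, again 3 per group. Polyadenylated RNA was sequenced from all groups, and genotype and ATRA are the only differences the labels give. Whether replicate libraries came from separate cultures is not stated in the labels, so the p-values reflect library-to-library spread that could be technical only.

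Retinoic acid enters the nucleus with the help of cellular binding proteins and acts on pairs of a retinoic acid receptor (RAR) and a retinoid X receptor (RXR) bound to DNA. Ligand turns these pairs from repressors into activators of genes such as those for CYP26 enzymes, which break retinoic acid down, RARB and the 3′ members of the HOX clusters, which give cells positional identity along the body axis. In embryonal carcinoma cells the hormone also ends expression of the pluripotency network and starts differentiation, in NT2/D1 mainly toward neural fates.

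The 6 knockout libraries held 25.5 to 38.2 M counts each. PRMT6 counts in them were 1, 0 and 1 untreated and 0, 2 and 0 with ATRA, at most 0.0587 CPM (counts relative to the library size as scaled by edgeR), against 1.94 to 29.9 CPM in the control libraries. The pluripotency factor LIN28A, a marker of the labelled cell type, was present in all 6, between 760.1 and 2522 CPM. The knockout libraries did not vary independently. The chi-square per gene was 1.91 between ATRA 1 and ATRA 3 and 9.01 between untreated 1 and 2, while other within-group pairs had 78.1 to 122. Untreated 3 and ATRA 2 stood apart from the rest of their groups, and they are called so below. They shared low levels of matrix genes, for example COL3A1, a fibrillar collagen, at 10569.6, 10915 and 1319 CPM untreated and 10266, 1670.4 and 10144 CPM with ATRA, the order of values being replicates 1 to 3 here and throughout. Among the control libraries, ATRA 2 went against its label at the known ATRA targets: CYP26A1 stood at 256, 0.0520 and 12.4 CPM and HOXB2 at 107, 0.780 and 51.9 CPM in control ATRA 1 to 3. That library enters the fits of all 12 libraries, including the comparison with the control at the end, and the scaling of the levels, but not the 6-library fit.

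Across 17582 genes tested on the 6 knockout libraries, edgeR called 1336 (7.60%) at an adjusted p under 0.05. Of these 723 (4.11% of genes tested) were higher and 613 (3.49%) lower with ATRA. A change of at least 2-fold was fitted for 706 of them, 358 higher and 348 lower. For every called gene the 3 ATRA libraries lay all above or all below the 3 untreated libraries. That separation was common among genes in general: 17.9% of all genes tested had all 3 ATRA libraries above and 15.1% all below. Across 14379 genes, which are not independent replicates, the log2 fold change had a Spearman correlation of -0.291 with GC content, and with each library's GC trend removed 977 genes were called.

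The number of calls depended on how the unequal libraries were treated. When each near-identical pair was summed to 1 library, 0 genes were called by edgeR, with 2185 at an unadjusted p under 0.05. The fit over all 12 libraries called 6 of 19130 genes (0.0314%). Without untreated 3 and ATRA 2, 7517 genes were called, 3926 higher (22.1%) and 3591 lower (20.2%), but the spread in that fit is only that between near-identical libraries. Since no called gene had overlapping groups, its sign in fits of some of these libraries follows from that choice and is no sign of stability. Counts for the gene lists below stand against 4.11% of all genes higher and 3.49% lower in the 6-library fit. Without untreated 3 and ATRA 2 these shares are 22.1% and 20.2%. Below, "rose", "fell" and "called" refer to the 6-library fit, log2 changes in brackets are its fitted log2 fold changes with their standard errors (SE), and counts "without the libraries that stood apart" refer to the fit of ATRA 1 and 3 against untreated 1 and 2.

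**Figure D1:**
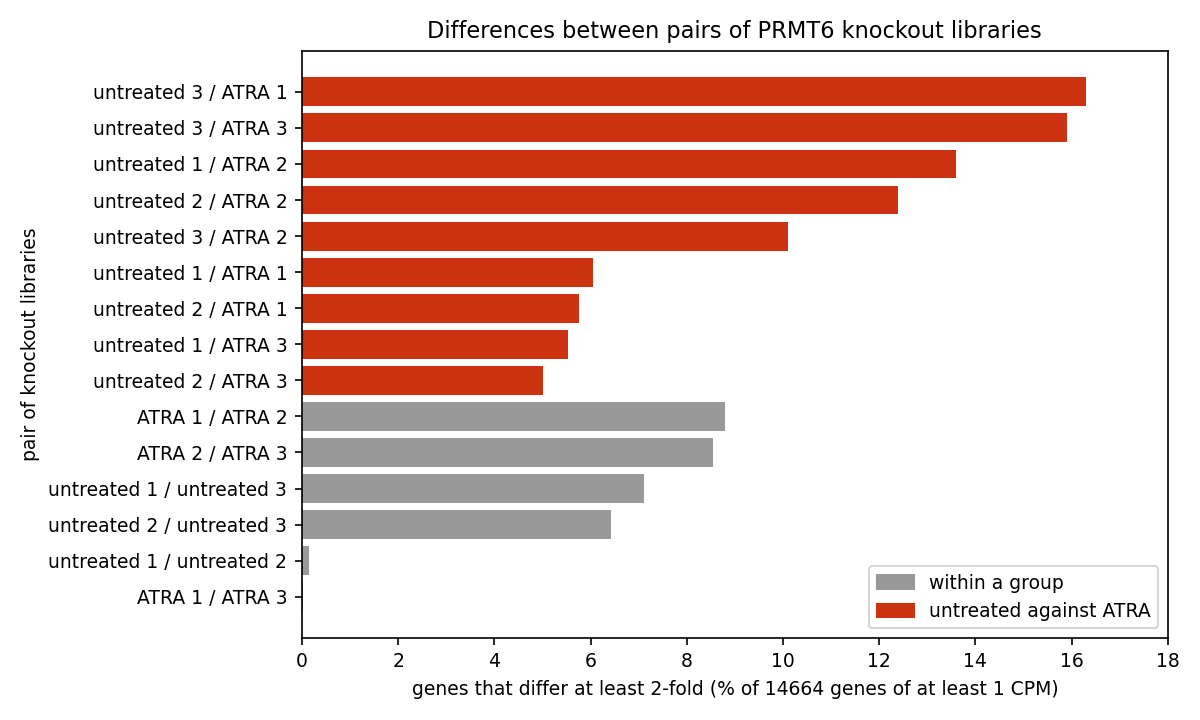
Share of 14664 genes of at least 1 CPM that differed 2-fold or more (horizontal axis, percent) for each pair of the 6 knockout libraries (vertical axis), within a group in grey and untreated against ATRA in red. Near-identical pairs lie at 0.0273% and 0.143%, the other pairs within a group at 6.43 to 8.80%, and pairs across ATRA at 5.02 to 16.3%.

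Differences across ATRA were not always wider than differences within a group. In the plot of library pairs, untreated 2 and ATRA 3 differed at least 2-fold in 5.02% of genes, less than untreated 1 and 3 (7.12%) or ATRA 1 and 2 (8.80%). Untreated 3 and ATRA 1 were the most different pair, at 16.3%.

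Letters that match a retinoid response element of the type known as DR5 are present in the promoters of RARB and CYP26A1, and both are shown because these genes are the textbook direct targets by which an ATRA response is recognised. The 120 bases before the transcription start are given 5′ to 3′ from RefSeq (GRCh38.p14, plus strand, another build than that of the counts), with the match in capitals: chr3:25428143-25428262 for RARB, with the match 53 to 37 bases before the start, and chr10:93073773-93073892 for CYP26A1, with the match on the opposite strand 90 to 74 bases before the start.
RARB: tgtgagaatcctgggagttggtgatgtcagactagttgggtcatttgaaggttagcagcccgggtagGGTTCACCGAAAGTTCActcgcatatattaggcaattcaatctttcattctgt
CYP26A1: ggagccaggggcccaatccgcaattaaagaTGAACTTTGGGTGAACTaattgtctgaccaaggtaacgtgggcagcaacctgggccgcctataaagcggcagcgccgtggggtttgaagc
The motif searched was any of the hexamers AGGTCA or AGTTCA or GGGTCA or GGTTCA, then any 5 bases, then any of them again, on either strand. It was found in 31 of 35116 promoters of 300 bases (0.0883%), 250 before and 50 after the start. A promoter entry existed for 11148 tested genes. Among these genes 11 held the motif, and RARB was the 1 called among them, where 7.60% of all genes tested were called. A link between the motif and the response was not tested.

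Genes that make, carry and break down retinoic acid responded unevenly. Of 14 tested genes 3 rose and 1 fell, where 4.11% and 3.49% of all genes did. The median log2 change was 0.44 against 0.00134 over all genes tested. With untreated 3 and ATRA 2 left out, 8 rose and 3 fell, where 22.1% and 20.2% of all genes did. The summed level of the list was 915 to 922 CPM in the untreated libraries and 2190, 6480 and 2200 CPM with ATRA, so all 3 treated libraries were above and ATRA 2 was far above the other two. DHRS3, a reductase that returns retinaldehyde to retinol, stood at 25.7, 24.8 and 24.3 CPM untreated and 84.4, 149 and 82.6 CPM with ATRA (log2 change 2.06 ± 0.24 SE, edgeR adjusted p = 0.00999). CRABP2, which carries retinoic acid to its receptors, stood at 599, 593 and 625 CPM untreated and 1748, 4776 and 1756 CPM with ATRA (log2 change 2.16 ± 0.40 SE, edgeR adjusted p = 0.0263). In both genes the groups did not overlap, and ATRA 2 was the highest treated library. CRABP1, a second retinoic acid carrier, was the called gene that moved the other way, at 119, 123 and 125 CPM untreated and 85.3, 78.2 and 84.9 CPM with ATRA (log2 change -0.58 ± 0.09 SE, edgeR adjusted p = 0.0191).

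CYP26A1, the main enzyme that clears retinoic acid, had the widest ratio between treated libraries in this list. Its level was 1.48, 1.15 and 4.45 CPM untreated and 12.7, 1019 and 11.05 CPM with ATRA. All treated libraries were above all untreated ones, and ATRA 2 was far above ATRA 1 and 3. The gene was not called in the 6-library fit (log2 change 7.21 ± 2.07 SE, edgeR adjusted p = 0.0802). In the other 4 libraries, it was called, with a log2 fold change of 3.16 (edgeR adjusted p = 3.82e-07). That fit called 22.1% of all genes higher, and its p-values reflect only the spread between near-identical libraries. CYP26B1, a second enzyme of that family, had the same pattern, at 0.492, 0.425 and 1.03 CPM untreated and 2.38, 89.3 and 2.81 CPM with ATRA (log2 change 5.60 ± 1.62 SE, edgeR adjusted p = 0.0826). Genes of synthesis and uptake were not called: ALDH1A2, which makes retinoic acid, stood at 2.71, 3.17 and 1.24 CPM untreated and 4.43, 0.646 and 3.94 CPM with ATRA, RDH10, which makes retinaldehyde, at 41.5, 42.3 and 14.3 CPM untreated and 56.1, 35.2 and 55.9 CPM with ATRA, and STRA6, a retinol transporter, at 39.3, 42.3 and 33.2 CPM untreated and 30.8, 48.4 and 30.4 CPM with ATRA. In each of these 3 genes the groups overlapped. The synthetic enzyme gene ALDH1A3 (log2 fold change -1.10) and the storage enzyme gene LRAT (0.18) overlapped too. RDH11, BCMO1 and FABP5 had log2 fold changes of 0.20, 0.62 and 0.21 and were not called.

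**Figure D2:**
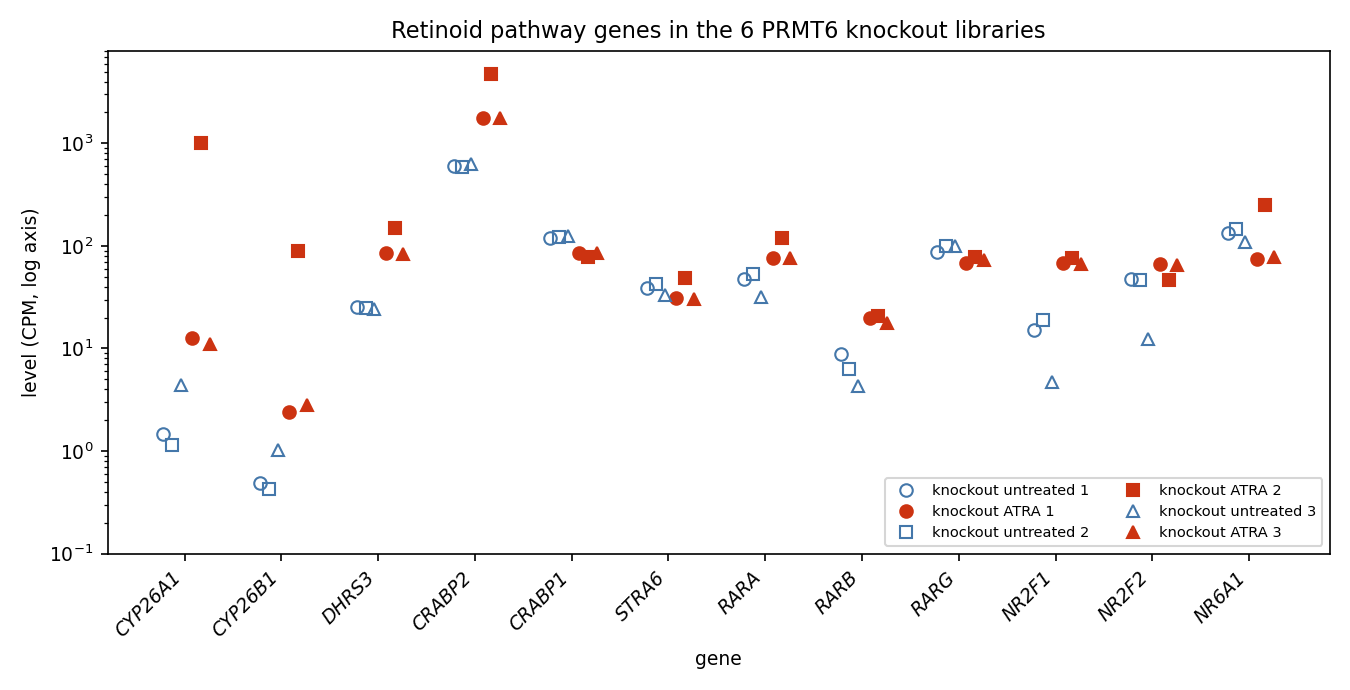
Level in CPM (log axis) of 12 retinoid pathway genes in each knockout library, with open blue symbols for untreated and filled red symbols for ATRA libraries, and circle, square and triangle for replicates 1, 2 and 3. ATRA 2 lies far above ATRA 1 and 3 for CYP26A1 (1019 against 12.7 and 11.05 CPM) and CYP26B1, while the 3 treated libraries lie together for RARB and NR2F1.

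Among 21 nuclear receptors, their co-regulators and retinoid-responsive genes, 2 rose and 1 fell, where 4.11% and 3.49% of all genes did. The median log2 change was 0.04. Without the libraries that stood apart 7 rose and 5 fell, where 22.1% and 20.2% of all genes did. RARB, the receptor gene whose promoter is printed above, stood at 8.75, 6.28 and 4.28 CPM untreated and 19.6, 20.7 and 17.5 CPM with ATRA (log2 change 1.56 ± 0.26 SE, edgeR adjusted p = 0.0214). NR2F1, an orphan receptor of the COUP-TF family that is induced by retinoids, stood at 15.2, 19.2 and 4.67 CPM untreated and 67.5, 76.01 and 66.7 CPM with ATRA (log2 change 2.40 ± 0.46 SE, edgeR adjusted p = 0.0288). Both had treated libraries of nearly equal level, and untreated 3 was the lowest untreated library. The corepressor gene NCOR1 fell, at 64.6, 53.8 and 53.04 CPM untreated and 34.2, 32.2 and 31.9 CPM with ATRA (log2 change -0.82 ± 0.12 SE, edgeR adjusted p = 0.0161). RARA, a receptor that is also an ATRA target, had all treated libraries higher, at 47.7, 53.01 and 31.4 CPM untreated and 75.6, 121 and 76.00 CPM with ATRA, and was not called (log2 change 1.02 ± 0.26 SE, edgeR adjusted p = 0.0587). RARG had them all lower, at 88.00, 99.5 and 99.2 CPM untreated and 68.7, 77.9 and 72.8 CPM with ATRA, and was not called either (log2 change -0.41 ± 0.10 SE, edgeR adjusted p = 0.0598).

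The remaining receptors were not called in the 6-library fit. The heterodimer partners RXRA, RXRB and RXRG had log2 fold changes of -0.17, 0.21 and -0.19, with groups that overlapped. NR2F2, the second COUP-TF gene, stood at 48.01, 46.7 and 12.3 CPM untreated and 66.95, 47.01 and 65.01 CPM with ATRA, with untreated 3 far below all other libraries. NR6A1, an orphan receptor that represses pluripotency genes, moved in opposite directions in the libraries: its level was 135, 146 and 110.2 CPM untreated and 74.2, 251 and 77.2 CPM with ATRA, above every untreated library in ATRA 2 and below every one in ATRA 1 and 3. Its log2 fold change was 0.01 ± 0.46 SE in all 6 libraries and -0.91 without those that stood apart. The co-regulators NRIP1 and NCOA3 had log2 fold changes of 0.35 and -0.06. Those of NR2F6, NR5A2, ESRRB and PPARD were 0.38, -0.09, -1.13 and -0.08. The retinoid-responsive genes RARRES1, RARRES2, RARRES3 and TGM2 had values of 1.10, 0.04, 0.54 and 0.41.

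HOXA genes were higher with ATRA along the whole cluster. All 11 had every treated library above every untreated one, where 17.9% of all genes tested did, and 6 rose, with a median log2 change of 2.08. Of all genes 4.11% rose. With untreated 3 and ATRA 2 left out, 10 rose, against 22.1% of all genes. The summed HOXA level was 219, 213 and 161 CPM untreated and 454, 1020 and 459 CPM with ATRA. HOXA3, a gene of hindbrain and pharyngeal identity, stood at 20.1, 20.7 and 10.2 CPM untreated and 59.7, 123 and 63.6 CPM with ATRA (log2 change 2.24 ± 0.38 SE, edgeR adjusted p = 0.0214). HOXA5, a cervical and thoracic gene, stood at 6.43, 6.97 and 4.24 CPM untreated and 26.7, 75.9 and 27.1 CPM with ATRA (log2 change 2.85 ± 0.47 SE, edgeR adjusted p = 0.0198). ATRA 2 was the highest library for both genes.

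DESeq2 called all 11 HOXA genes and limma-voom 5. Among the posterior genes, which specify trunk and limb levels, HOXA9 stood at 3.80, 3.96 and 4.11 CPM untreated and 17.8, 53.5 and 18.2 CPM with ATRA (log2 change 2.89 ± 0.46 SE, edgeR adjusted p = 0.0188) and HOXA10 at 66.7, 65.6 and 57.8 CPM untreated and 139, 264 and 141 CPM with ATRA (log2 change 1.49 ± 0.26 SE, edgeR adjusted p = 0.0227). HOXA4, a gene of the anterior part of the cluster, rose by 2.08 on the log2 scale, at 1.23, 0.589 and 0.557 CPM untreated and 3.10, 4.05 and 3.11 CPM with ATRA. HOXA2, a regulator of the hindbrain, stood at 4.36, 3.76 and 0.514 CPM untreated and 13.8, 12.1 and 12.7 CPM with ATRA. It was not called (log2 change 2.12 ± 0.61 SE, edgeR adjusted p = 0.0805), and untreated 3 was its lowest library. The other members HOXA6, HOXA7, HOXA11 and HOXA13 had no call at log2 fold changes of 1.22, 1.13, 0.58 and 0.51 (edgeR adjusted p = 0.123, 0.0704, 0.0992 and 0.0914). Without the libraries that stood apart HOXA7, HOXA11 and HOXA13 were called (edgeR adjusted p = 0.000131, 0.000445 and 0.00444) and HOXA6 was not (0.0588). These p-values too reflect only the spread between near-identical libraries. Antisense genes lie within the HOX clusters, and the strand setting of the counting is not given in the sources used here, so a HOX gene and an antisense partner may share counts.

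HOXB genes had the largest median of the lists, 2.80 on the log2 scale. Of 10 tested 4 rose, and 9 without the libraries that stood apart, where 4.11% and 22.1% of all genes did. The summed HOXB level was 67.4, 66.3 and 96.6 CPM untreated and 159, 885 and 160 CPM with ATRA. HOXB2, a hindbrain gene, stood at 12.5, 13.2 and 22.3 CPM untreated and 49.4, 167 and 50.8 CPM with ATRA (log2 change 2.45 ± 0.53 SE, edgeR adjusted p = 0.0396). HOXB3 stood at 4.71, 4.58 and 4.24 CPM untreated and 18.7, 85.4 and 17.7 CPM with ATRA (log2 change 3.14 ± 0.65 SE, edgeR adjusted p = 0.0353). HOXB4 and HOXB5, of the middle of the cluster, rose from very low levels, HOXB4 from 0.387, 0.229 and 0.0856 to 2.46, 19.1 and 3.00 CPM (log2 change 5.04 ± 1.03 SE, edgeR adjusted p = 0.0346) and HOXB5 from 1.02, 0.720 and 1.03 to 6.75, 52.7 and 7.08 CPM (log2 change 4.56 ± 0.94 SE, edgeR adjusted p = 0.0351). In all 4 genes ATRA 1 and 3 were nearly equal and ATRA 2 was well above them. DESeq2 called 5 HOXB genes and limma-voom 0.

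The other HOXB genes were not called, each with ATRA 2 as the highest library. HOXB1, an early hindbrain target of retinoic acid, stood at 14.5, 13.7 and 17.5 CPM untreated and 19.7, 212 and 21.2 CPM with ATRA: ATRA 1 and 3 were close to the untreated level and ATRA 2 was far above it (log2 change 2.44 ± 0.92 SE, edgeR adjusted p = 0.151). HOXB8 stood at 0.281, 0.556 and 2.57 CPM untreated and 3.71, 89.6 and 4.63 CPM with ATRA, and HOXB6 at 1.62, 1.37 and 15.8 CPM untreated and 16.9, 136 and 15.8 CPM with ATRA, where untreated 3 reached the level of ATRA 1 and 3. HOXB7, HOXB9 and HOXB13 had log2 fold changes of 2.28, 1.25 and 0.83. In the other clusters 1 of 4 tested HOXC genes and 1 of 9 tested HOXD genes rose, where 4.11% of all genes did. HOXC4, which limma-voom did not call, stood at 0.914, 0.753 and 1.33 CPM untreated and 5.42, 19.96 and 5.43 CPM with ATRA (log2 change 3.34 ± 0.61 SE, edgeR adjusted p = 0.0256), and HOXD8 at 7.13, 7.10 and 5.99 CPM untreated and 12.8, 19.3 and 12.6 CPM with ATRA (log2 change 1.12 ± 0.21 SE, edgeR adjusted p = 0.0281). The HOXD list had a median of 0.09, close to that of all genes, and its posterior member HOXD13, named after its values were seen, stood at 96.5, 94.8 and 212 CPM untreated and 90.5, 214 and 87.5 CPM with ATRA.

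**Figure D3:**
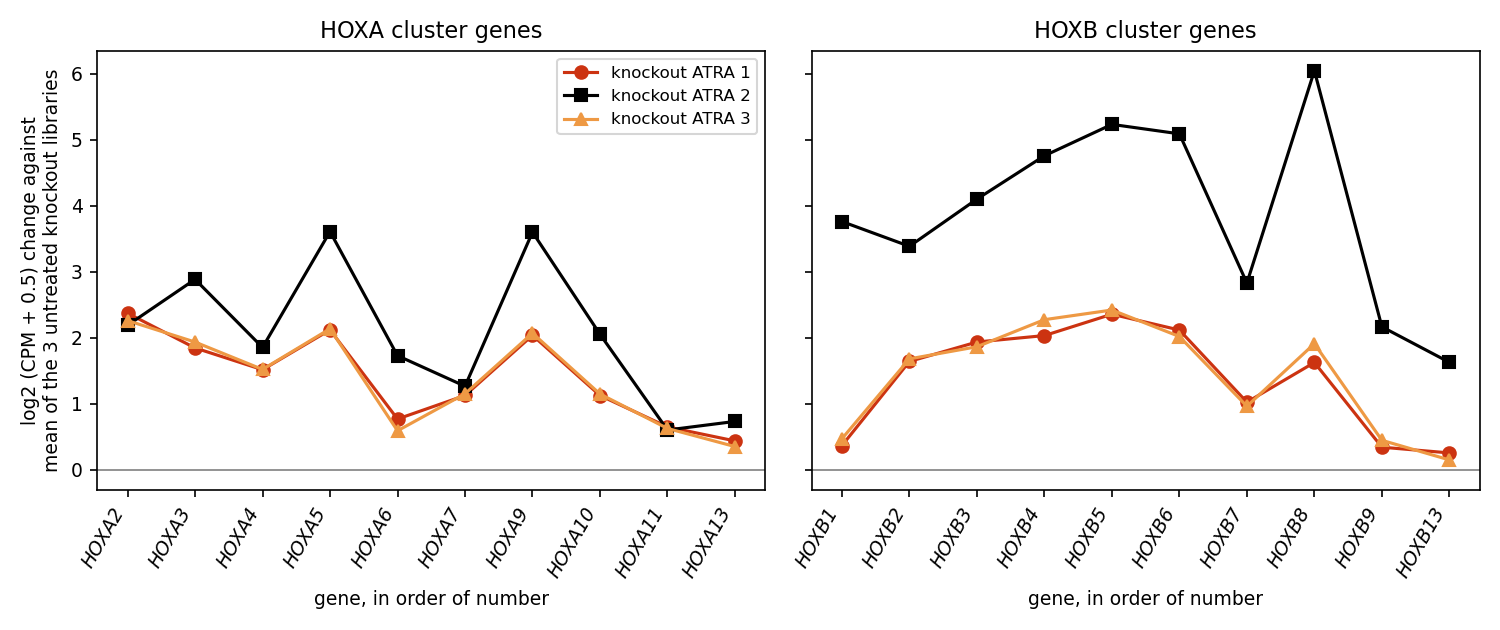
Change in log2 (CPM + 0.5) of 10 HOXA genes (left) and 10 HOXB genes (right) in the 3 ATRA libraries against the mean of the 3 untreated knockout libraries, with genes in order of their number. The lines of ATRA 1 (red circles) and ATRA 3 (orange triangles) nearly coincide, and ATRA 2 (black squares) lies above them at all HOXB genes and at most HOXA genes.

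Of 18 tested HOX cofactors and hindbrain genes 3 rose, and 10 rose and 3 fell without the libraries that stood apart. Of all genes 4.11% rose, and 22.1% rose and 20.2% fell without those libraries. IRX3, a homeobox gene of the caudal neural plate, stood at 15.1, 15.9 and 8.99 CPM untreated and 46.3, 60.1 and 51.1 CPM with ATRA (log2 change 1.95 ± 0.24 SE, edgeR adjusted p = 0.0106). Its treated libraries had similar levels. CDX1, a retinoid target that regulates HOX genes and was named after its values were seen, stood at 8.54, 10.1 and 23.7 CPM untreated and 22.4, 268 and 22.1 CPM with ATRA and was not called (log2 change 2.86 ± 1.05 SE, edgeR adjusted p = 0.144). Its untreated 3 library lay above ATRA 1 and 3.

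Many pluripotency genes fell with ATRA. Of 27 tested genes 10 fell and 2 rose, where 3.49% and 4.11% of all genes did, with a median log2 change of -0.90. In the other 4 libraries, 20 of 26 fell and 4 rose, where 20.2% and 22.1% of all genes did. POU5F1, a core pluripotency factor, stood at 791, 840.0 and 1524 CPM untreated and 305, 515 and 299 CPM with ATRA (log2 change -1.52 ± 0.32 SE, edgeR adjusted p = 0.0365). SOX2, its partner, which neural progenitors share, stood at 50.7, 47.3 and 78.9 CPM untreated and 18.3, 26.6 and 17.4 CPM with ATRA (log2 change -1.53 ± 0.25 SE, edgeR adjusted p = 0.0203). Every treated library of both was below every untreated one, the highest values of each group being in untreated 3 and ATRA 2. NANOG had the same order, at 55.6, 58.7 and 103 CPM untreated and 25.8, 42.2 and 25.3 CPM with ATRA, and just missed the threshold (log2 change -1.24 ± 0.30 SE, edgeR adjusted p = 0.0536). PRDM14, a repressor that guards the pluripotent state, stood at 19.3, 19.4 and 39.2 CPM untreated and 4.03, 6.10 and 3.99 CPM with ATRA (log2 change -2.48 ± 0.34 SE, edgeR adjusted p = 0.014). L1TD1, an RNA-binding protein of pluripotent cells, stood at 111, 92.9 and 98.5 CPM untreated and 36.8, 28.03 and 34.1 CPM with ATRA (log2 change -1.63 ± 0.14 SE, edgeR adjusted p = 0.00652). The 2 genes of the list that rose, LEFTY2 and DUSP6, encode a secreted inhibitor of Nodal signalling and a phosphatase that limits ERK. LEFTY2 stood at 20.1, 25.8 and 16.7 CPM untreated and 352, 938 and 359 CPM with ATRA (log2 change 4.69 ± 0.46 SE, edgeR adjusted p = 0.00798), but it has a near-identical neighbour, LEFTY1, and the split of reads between them is uncertain. LEFTY1, named for this reason, stood at 4.92, 4.91 and 4.45 CPM untreated and 3.97, 13.2 and 3.06 CPM with ATRA. The level of LIN28A was 1418, 1406 and 2522 CPM untreated and 772, 1495 and 760.1 CPM with ATRA, and in ATRA 2 it was close to that of untreated 1 and 2.

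Neural genes did not rise together. Among 13 tested neural progenitor genes 3 fell, with a median log2 change of -0.17, and edgeR, DESeq2 and limma-voom each called 0 higher, with 1 higher at an unadjusted edgeR p under 0.05. Without the libraries that stood apart 3 rose and 4 fell, where 22.1% and 20.2% of all genes did. ZIC2, a zinc finger gene of the early neural plate and of primed pluripotent cells, stood at 45.5, 52.4 and 66.1 CPM untreated and 11.4, 9.80 and 12.97 CPM with ATRA (log2 change -2.28 ± 0.19 SE, edgeR adjusted p = 0.00561), and LHX2, a forebrain gene, at 15.1, 16.00 and 17.8 CPM untreated and 8.64, 6.75 and 8.15 CPM with ATRA (log2 change -1.07 ± 0.16 SE, edgeR adjusted p = 0.0162). Of 23 tested neuronal genes 1 rose and 1 fell, close to the 4.11% and 3.49% of all genes, and 4 rose and 7 fell without those libraries. NEFL, the neurofilament light chain, stood at 82.8, 85.7 and 64.6 CPM untreated and 124, 122 and 126 CPM with ATRA (log2 change 0.65 ± 0.13 SE, edgeR adjusted p = 0.0333), and GAD1, an enzyme that makes GABA, at 16.8, 16.6 and 38.9 CPM untreated and 5.13, 5.25 and 4.55 CPM with ATRA (log2 change -2.29 ± 0.36 SE, edgeR adjusted p = 0.0179). Of 15 neural crest genes 1 rose and 1 fell, close to the 4.11% and 3.49% of all genes, and 8 rose and 4 fell without the libraries that stood apart. KITLG, the ligand of KIT, stood at 1.69, 2.06 and 1.16 CPM untreated and 8.32, 6.05 and 7.71 CPM with ATRA (log2 change 2.14 ± 0.27 SE, edgeR adjusted p = 0.0109), and NGFR, the low-affinity neurotrophin receptor, at 7.03, 7.72 and 6.94 CPM untreated and 3.25, 2.52 and 4.02 CPM with ATRA (log2 change -1.17 ± 0.22 SE, edgeR adjusted p = 0.0265).

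Mesoderm and endoderm lists had medians of -0.02 and -0.47. Of 21 tested mesoderm genes 1 rose and 1 fell, where 4.11% and 3.49% of all genes did. The mesoderm median was 0.19 in ATRA 1 and 3 against untreated 1 and 2, with 8 genes higher and 3 lower, and -0.27 in ATRA 2 against untreated 3. GATA6, a regulator of endoderm and heart mesoderm, stood at 11.9, 14.3 and 5.27 CPM untreated and 38.7, 38.6 and 37.6 CPM with ATRA (log2 change 1.84 ± 0.34 SE, edgeR adjusted p = 0.0261), and EOMES, a regulator of mesendoderm, at 14.5, 13.8 and 20.2 CPM untreated and 2.84, 1.03 and 2.23 CPM with ATRA (log2 change -3.01 ± 0.38 SE, edgeR adjusted p = 0.0112). Among 7 tested endoderm genes SOX17 fell, from 0.457, 0.622 and 1.37 to 0.116, 0 and 0.110 CPM, levels near those of a few counts. In bulk RNA, fewer cells of a type and less RNA per cell cannot be told apart, for these lists and for those below.

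Trophoblast and amnion markers included genes that rose. All 13 tested genes had fitted values above 0, 10 had all treated libraries above all untreated ones (17.9% of all genes), and 4 rose (4.11% of all genes), with a median log2 change of 1.19. With untreated 3 and ATRA 2 left out, 11 rose, against 22.1% of all genes. Their summed level was 400, 417 and 387 CPM untreated and 603, 715 and 604 CPM with ATRA. VTCN1, a surface protein of the B7 family that is expressed in trophoblast and amnion, had the largest increase by the rule for named genes, at 0.105, 0.229 and 0.0428 CPM untreated and 6.17, 5.81 and 5.29 CPM with ATRA (log2 change 5.39 ± 0.41 SE, edgeR adjusted p = 0.0055). GABRP, a GABA receptor subunit used as an amnion marker, stood at 0.808, 0.720 and 2.91 CPM untreated and 14.1, 7.98 and 14.9 CPM with ATRA (log2 change 3.07 ± 0.57 SE, edgeR adjusted p = 0.0269). ISL1, an amnion and motor neuron factor named after its values were seen, stood at 43.5, 42.4 and 23.2 CPM untreated and 76.6, 98.8 and 77.5 CPM with ATRA (log2 change 1.19 ± 0.25 SE, edgeR adjusted p = 0.0378). CGA, the hormone gene that was also called, had 1 count in the untreated libraries together and levels of 0.435, 2.32 and 0.358 CPM with ATRA.

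Epithelial genes had 2 of 18 tested members higher, and 10 higher and 2 lower without the libraries that stood apart. Of all genes 4.11% were higher, and 22.1% higher and 20.2% lower without those libraries. CLDN4, a tight junction claudin, stood at 1.05, 1.93 and 1.80 CPM untreated and 15.1, 27.3 and 15.98 CPM with ATRA (log2 change 3.58 ± 0.34 SE, edgeR adjusted p = 0.00761), and KRT18, a simple epithelial keratin, at 2882, 2769 and 3110.4 CPM untreated and 4091, 4853 and 4139 CPM with ATRA (log2 change 0.56 ± 0.11 SE, edgeR adjusted p = 0.0321). The summed level of stromal matrix and fibroblast genes was lower in the libraries that stood apart. Of 23 tested 2 fell, where 3.49% of all genes did. Without those libraries 5 rose and 14 fell, where 22.1% and 20.2% of all genes did. The summed level was 28400, 29600 and 10800 CPM untreated and 25000, 7440 and 25000 CPM with ATRA. THY1, a surface glycoprotein, stood at 236, 245 and 252 CPM untreated and 109, 101 and 109.9 CPM with ATRA (log2 change -1.22 ± 0.09 SE, edgeR adjusted p = 0.0055), and COL1A2, a collagen chain, at 35.99, 37.99 and 47.3 CPM untreated and 14.03, 15.1 and 15.1 CPM with ATRA (log2 change -1.48 ± 0.14 SE, edgeR adjusted p = 0.0078). For both, all treated libraries lay below all untreated ones, and untreated 3 was the highest library. The decorin gene DCN, of a matrix proteoglycan, was chosen like COL3A1 for a known difference among these libraries. It was at 22.5, 17.9 and 0.128 CPM untreated and 27.9, 0.264 and 26.4 CPM with ATRA. The part of this difference between libraries in the other results was not tested beyond the fits with and without untreated 3 and ATRA 2.

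**Figure D4:**
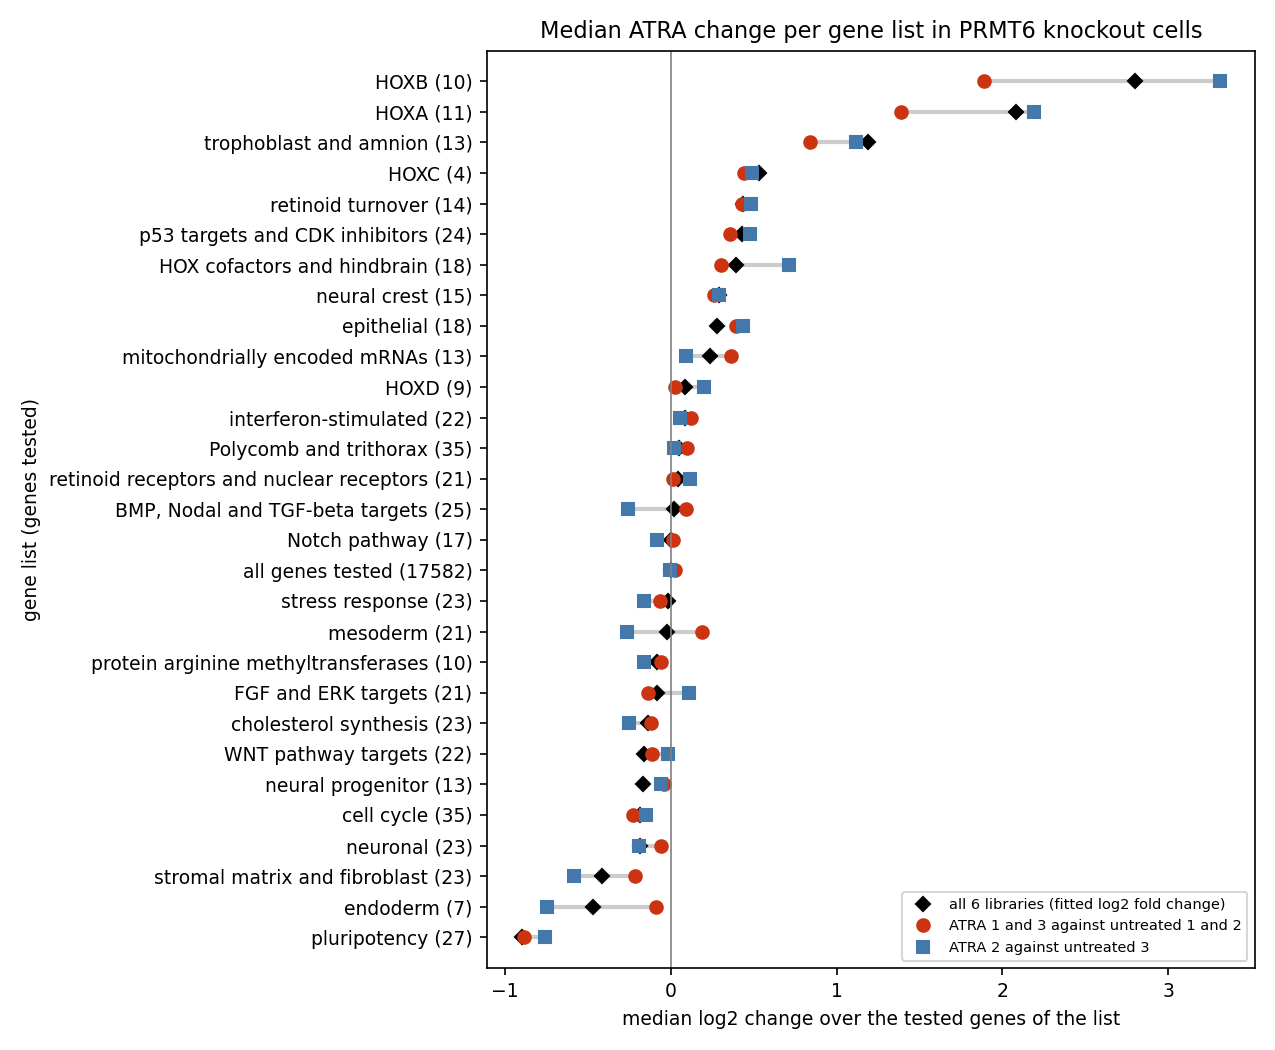
Median log2 change over the tested genes of each list (number tested in brackets) for all 6 knockout libraries (black diamonds), for ATRA 1 and 3 against untreated 1 and 2 (red circles) and for ATRA 2 against untreated 3 (blue squares). HOXB, HOXA and trophoblast and amnion genes lie highest, and pluripotency genes lowest, in all 3 comparisons, with endoderm genes close to the latter in ATRA 2 against untreated 3.

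Of 35 cell cycle genes 1 was called and 34 were not, where 7.60% of all genes tested were called. The median log2 change of the list was -0.183. The called gene was MKI67, a marker of cycling cells, at 255, 212 and 223 CPM untreated and 88.3, 87.95 and 91.9 CPM with ATRA (log2 change -1.39 ± 0.11 SE, edgeR adjusted p = 0.0055). With the libraries that stood apart left out, 7 rose and 18 fell, where 22.1% and 20.2% of all genes did. Of 24 p53 targets and CDK inhibitors 4 rose, where 4.11% of all genes did, and without those libraries 16 rose and 2 fell, where 22.1% and 20.2% of all genes did. PLK2, a stress-responsive kinase, stood at 24.8, 23.5 and 21.02 CPM untreated and 42.03, 55.7 and 42.8 CPM with ATRA (log2 change 1.00 ± 0.15 SE, edgeR adjusted p = 0.0164), and TP53INP1, a p53 cofactor, at 19.3, 18.7 and 11.3 CPM untreated and 39.3, 46.9 and 38.2 CPM with ATRA (log2 change 1.31 ± 0.22 SE, edgeR adjusted p = 0.0218).

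Of 25 BMP, Nodal and TGF-beta targets 3 rose, LEFTY2 and SMAD6, an inhibitory SMAD, among them, the latter at 57.6, 60.3 and 61.99 CPM untreated and 81.1, 96.7 and 83.7 CPM with ATRA (log2 change 0.52 ± 0.11 SE, edgeR adjusted p = 0.0353). Without the libraries that stood apart 10 of this list rose and 6 fell. Against this list and the next stand 4.11% of all genes higher and 3.49% lower, or 22.1% and 20.2% without those libraries. Of 22 WNT targets 2 fell (6 rose and 8 fell without those libraries, and DESeq2 called 8), the growth regulator MYC, at 56.02, 58.6 and 67.2 CPM untreated and 40.2, 37.1 and 42.4 CPM with ATRA (log2 change -0.62 ± 0.12 SE, edgeR adjusted p = 0.0291), and the ligand WNT8A, at 1.97, 2.49 and 6.51 CPM untreated and 0.551, 0.646 and 0.358 CPM with ATRA (log2 change -2.82 ± 0.53 SE, edgeR adjusted p = 0.0273). Targets of FGF and ERK had 4 of 21 genes lower and 1 higher, where 3.49% and 4.11% of all genes were. DESeq2 called 8 of them, and 8 rose and 10 fell without the libraries that stood apart. The ERK feedback inhibitors DUSP5 and SPRY2 fell, DUSP5 at 35.8, 36.02 and 41.1 CPM untreated and 24.5, 23.9 and 23.7 CPM with ATRA (log2 change -0.67 ± 0.11 SE, edgeR adjusted p = 0.0223) and SPRY2 at 90.6, 91.8 and 120.3 CPM untreated and 65.8, 58.8 and 65.3 CPM with ATRA (log2 change -0.69 ± 0.14 SE, edgeR adjusted p = 0.0336), while DUSP6, a related phosphatase, rose, at 121, 129 and 66.5 CPM untreated and 244, 528 and 241 CPM with ATRA (log2 change 1.65 ± 0.38 SE, edgeR adjusted p = 0.046). Of 17 Notch pathway genes edgeR called 0, with 2 higher and 1 lower at an unadjusted p under 0.05. DESeq2 called 3 of them, and limma-voom 0.

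Of 35 Polycomb and trithorax genes 1 rose and 2 fell, close to the 4.11% and 3.49% of all genes, with a median of 0.05. Without the libraries that stood apart 10 rose and 13 fell, where 22.1% and 20.2% of all genes did. PHC1, a subunit of Polycomb complex 1 with high expression in pluripotent cells, stood at 270.3, 253 and 259 CPM untreated and 140.3, 149 and 145 CPM with ATRA (log2 change -0.87 ± 0.09 SE, edgeR adjusted p = 0.00833). KMT2A, a histone H3 lysine methyltransferase that maintains HOX expression, stood at 93.1, 86.97 and 72.4 CPM untreated and 46.5, 45.8 and 46.9 CPM with ATRA (log2 change -0.88 ± 0.12 SE, edgeR adjusted p = 0.0143). BMI1, a Polycomb ring finger protein, rose and was named after its values were seen. It stood at 1.69, 2.03 and 1.97 CPM untreated and 9.54, 3.82 and 9.01 CPM with ATRA (log2 change 1.96 ± 0.37 SE, edgeR adjusted p = 0.0276), with ATRA 2 between the untreated libraries and ATRA 1 and 3. Of 10 tested arginine methyltransferase genes PRMT8 fell, at 3.48, 3.63 and 3.13 CPM untreated and 0.985, 2.05 and 1.05 CPM with ATRA (log2 change -1.35 ± 0.32 SE, edgeR adjusted p = 0.0498), and the other 9 were not called.

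Among the metabolic, stress, interferon-stimulated and mitochondrial lists, only cholesterol synthesis held calls in both directions. Calls in each of these lists stand against 4.11% of all genes higher and 3.49% lower. With 1 of 22 lower, the interferon-stimulated list was close to that share. Of 23 cholesterol synthesis genes 4 rose and 2 fell, where 4.11% and 3.49% of all genes did. The median log2 change was -0.135, however, and 16 had fitted values below 0. Without the libraries that stood apart 5 rose and 9 fell, where 22.1% and 20.2% of all genes did. The summed level of the list was 7760, 7880 and 8310 CPM untreated and 6790, 6730 and 6810 CPM with ATRA. The 2 genes named by the rule both rose. MSMO1, a sterol oxidase, stood at 17.5, 14.99 and 19.5 CPM untreated and 50.9, 58.3 and 48.95 CPM with ATRA (log2 change 1.58 ± 0.14 SE, edgeR adjusted p = 0.00672), and SC5D, a late desaturase of the pathway, at 15.4, 14.04 and 15.7 CPM untreated and 36.6, 27.4 and 34.6 CPM with ATRA (log2 change 1.11 ± 0.15 SE, edgeR adjusted p = 0.0141). Of 23 stress genes 2 fell, ATF4, the main factor of the integrated stress response, at 613, 591 and 543 CPM untreated and 422, 356 and 428 CPM with ATRA (log2 change -0.55 ± 0.12 SE, edgeR adjusted p = 0.0359), and PHGDH, of serine synthesis, at 1383, 1447 and 1415 CPM untreated and 977, 1131 and 983 CPM with ATRA (log2 change -0.48 ± 0.10 SE, edgeR adjusted p = 0.0354). IFITM1, the 1 of 22 interferon-stimulated genes that was called, is also abundant in pluripotent cells and fell, at 141, 121 and 354 CPM untreated and 27.7, 37.5 and 26.8 CPM with ATRA (log2 change -2.76 ± 0.43 SE, edgeR adjusted p = 0.017). Of 13 mitochondrial mRNAs MT-ND3 rose, at 515, 487 and 516 CPM untreated and 1057, 921 and 1133 CPM with ATRA (log2 change 1.02 ± 0.11 SE, edgeR adjusted p = 0.0085), as did MT-ND4L, which overlaps MT-ND4, by 0.59 on the log2 scale.

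The largest increases by the rule for named genes, beside VTCN1, HOXB4, HOXB5, LEFTY2 and CLDN4, were in genes of varied function. CD22, a lectin of B cells, stood at 3.30, 3.04 and 0.728 CPM untreated and 19.04, 114 and 18.6 CPM with ATRA (log2 change 4.38 ± 0.93 SE, edgeR adjusted p = 0.0375). MAG, a myelin lectin of the same family, stood at 0.949, 1.15 and 0.257 CPM untreated and 6.43, 32.6 and 7.11 CPM with ATRA (log2 change 4.23 ± 0.83 SE, edgeR adjusted p = 0.0306). Both were highest in ATRA 2 and lowest in untreated 3. RBBP8NL rose by 3.94 and ANXA9, an annexin, by 3.84 on the log2 scale. SPNS2, a transporter of sphingosine 1-phosphate, stood at 0.843, 1.47 and 2.35 CPM untreated and 14.2, 20.95 and 13.3 CPM with ATRA (log2 change 3.36 ± 0.38 SE, edgeR adjusted p = 0.00979).

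The largest decreases included 2 matrix metalloproteinases, MMP25 at 8.58, 8.90 and 15.97 CPM untreated and 1.22, 0.704 and 1.65 CPM with ATRA (log2 change -3.23 ± 0.40 SE, edgeR adjusted p = 0.0107) and MMP9 at 5.10, 6.31 and 30.3 CPM untreated and 1.54, 1.64 and 1.60 CPM with ATRA (log2 change -3.14 ± 0.71 SE, edgeR adjusted p = 0.0442). MMP9 was highest in untreated 3, and its treated libraries were alike. UMODL1 fell by 3.24, TAGAP, a GTPase-activating protein of lymphocytes, by 2.91, and C1orf94 by 2.55 on the log2 scale. PPP1R16B, a regulator of protein phosphatase 1, stood at 36.2, 34.4 and 44.9 CPM untreated and 5.88, 4.70 and 6.20 CPM with ATRA (log2 change -2.80 ± 0.18 SE, edgeR adjusted p = 0.0055). ALG1L7P, a pseudogene of a family of like copies, fell by 2.67 on the log2 scale, and its reads cannot be assigned with certainty. EOMES, IFITM1 and PRDM14, given above, complete this set.

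Of all genes, 6 were called both in the 6-library fit and in the fit of all 12 libraries. They were also called without the libraries that stood apart, but so were all 1336 genes called in the 6-library fit. NDUFC2, a subunit of respiratory complex I, stood at 17.9, 21.2 and 23.1 CPM untreated and 98.4, 104 and 93.6 CPM with ATRA (log2 fold change 2.25 in the 12-library fit, edgeR adjusted p = 0.0414). TMED7, a cargo receptor of the secretory pathway, stood at 2.07, 2.58 and 2.70 CPM untreated and 21.7, 14.5 and 20.1 CPM with ATRA (2.94, edgeR adjusted p = 0.0414). DSTN, the actin-depolymerising factor destrin, stood at 65.1, 75.7 and 72.9 CPM untreated and 170.4, 161 and 163 CPM with ATRA (1.21, edgeR adjusted p = 0.0456). For NDUFC2 and DSTN the libraries of each group had similar levels, while for TMED7 ATRA 2 lay below ATRA 1 and 3. A call in both fits favours genes with a small spread within groups, so that spread is no separate result. CLDN4 had a log2 fold change of 3.61 in that fit (edgeR adjusted p = 0.0456). The clone-named genes RP11-290D2.6 and RP11-222K16.2 stood at 1.23, 1.05 and 1.88 CPM untreated and 9.25, 8.98 and 10.3 CPM with ATRA and at 1.37, 1.41 and 1.16 CPM untreated and 0.116, 0.0587 and 0.0551 CPM with ATRA.

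The ATRA change of ATRA 1 and 3 against untreated 1 and 2 was compared with that of ATRA 2 against untreated 3, as a description without a test. Across 14664 genes of at least 1 CPM the log2 changes had a Pearson correlation of 0.712 and a Spearman correlation of 0.670. Points share libraries within each axis and are not independent. The change was at least 2-fold for 747 genes in the first comparison and for 1482 in the second. Both held 487 genes with the same sign, which is 65.2% of the first list and 32.9% of the second. Of the 747 genes, 732 (98.0%) had the same sign in the second comparison. They were chosen for a large change, and the share over all 14664 genes was not taken, so 98.0% has no baseline here.

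Genes with the widest gap between these comparisons were chosen after their values were seen. ISX, a homeobox gene of intestine and a known retinoid target, stood at 0.281, 0.491 and 0.0428 CPM untreated and 1.04, 39.7 and 1.57 CPM with ATRA, with ATRA 2 far above the rest. CYP26A1, CYP26B1, CD22 and MAG, described above, shared that order. In the other direction, GATA4, a regulator of endoderm and heart, stood at 33.98, 32.2 and 49.3 CPM untreated and 40.8, 4.08 and 39.3 CPM with ATRA, and ATRA 2 was far below every other knockout library. The mesoderm factor T, also called brachyury, stood at 2.92, 3.40 and 29.97 CPM untreated and 1.25, 0.792 and 1.46 CPM with ATRA, and the apelin receptor gene APLNR at 27.3, 31.7 and 116 CPM untreated and 18.4, 9.01 and 19.1 CPM with ATRA, both highest in untreated 3. CRB1, a polarity protein, stood at 0.527, 0.524 and 0.171 CPM untreated and 5.59, 0.264 and 5.73 CPM with ATRA, and was higher in ATRA 1 and 3 than in the other 4 libraries.

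**Figure D5:**
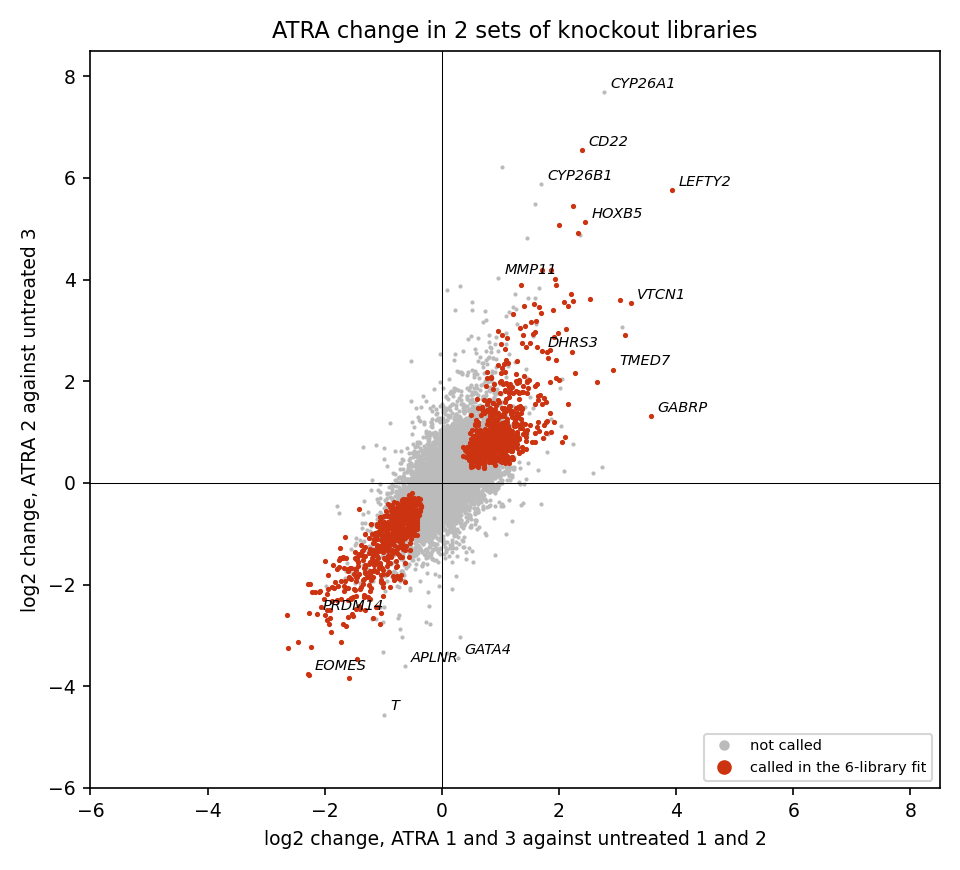
Log2 (CPM + 0.5) change of 14664 genes in ATRA 1 and 3 against untreated 1 and 2 (horizontal axis) and in ATRA 2 against untreated 3 (vertical axis), with genes called in the 6-library fit in red. Called genes lie in the lower left and upper right, which follows from their groups not overlapping, while CYP26A1 and CYP26B1 lie high on the vertical axis and GATA4 and T low on it.

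Whether the response of the knockout differed from that of the control was tested by the interaction in the fit of all 12 libraries. edgeR called 0 of 19130 genes (0%), with 1868 at an unadjusted p under 0.05 and a smallest adjusted p of 0.509. DESeq2 called 13 and limma-voom 0. Without control ATRA 2, the library that went against its label, 2 genes were called: HOXD10, at 16.9, 10.4 and 8.65 and 0.984, 8.78 and 1.22 CPM in the untreated and treated control and at 65.6, 61.5 and 68.9 CPM untreated and 57.9, 74.9 and 58.1 CPM with ATRA in the knockout (difference of the log2 changes 3.39, edgeR adjusted p = 0.0263), and the clone-named CTD-2124B20.3. Without control untreated 1, 135 genes were called.

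Single genes are given side by side, with no difference called in the fit of all 12 libraries. HOXA3 stood at 0.614, 0.0352 and 0.115 CPM in the untreated control and at 70.8, 0.546 and 64.6 CPM with ATRA, so that its untreated knockout level of 20.1, 20.7 and 10.2 CPM lay above every untreated control library (difference of the log2 changes, knockout minus control, -5.35 ± 1.65 SE, edgeR adjusted p = 0.509). For RARB the control stood at 0.400, 0.0352 and 1.38 and 18.8, 1.61 and 5.21 CPM (-2.19 ± 1.25 SE, edgeR adjusted p = 0.56). DHRS3 stood at 10.4, 13.8 and 14.7 and 73.5, 7.64 and 37.2 CPM in the control (0.48 ± 0.77 SE, edgeR adjusted p = 0.832). MSMO1, which rose in the knockout, stood at 53.5, 141 and 203 and 69.95, 119 and 90.8 CPM in the control (2.11 ± 0.53 SE, edgeR adjusted p = 0.509). CRABP1, which fell in the knockout, stood at 160.4, 251 and 156 and 209, 237 and 365 CPM (-1.08 ± 0.34 SE, edgeR adjusted p = 0.509). For HOXA3 control ATRA 2 lay within the untreated range, and for RARB it was just above it.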

How the data were processed

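RNA from NT2/D1 cells was made into stranded mRNA libraries (Illumina TruSeq), per the labels' protocols. The authors deposited 1 table of raw counts per gene for all 12 libraries, whole numbers that are not normalized. Per the submitters' processing notes, bcl2fastq, TopHat2, Subread, featureCounts and DESeq2 were used, with hg19 and GRCh37 as builds. Of these tools the version, and for counting the annotation and the strand setting, is not given in the sources used here.

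From these counts, genes were kept with filterByExpr (minimum count 10) and libraries scaled by TMM. The quasi-likelihood F-test of edgeR 4.0.16 under R 4.3.3 compared ATRA with untreated knockout over 6 libraries, without replicate numbers as a term, with Benjamini-Hochberg adjustment over all genes tested. The interaction was tested over 12 libraries. The median log2 change over all genes was 0.00134. Standard errors are the fold change divided by the root of F. Levels are CPM on library sizes scaled over the 12 libraries. Total counts of 25.5 to 38.2 M put 3 counts at 0.0785 to 0.118 CPM in the knockout libraries. Chi-squares were taken over genes with at least 20 counts in a pair. GC content came from GENCODE v44 on GRCh38, by symbol, for 81.8% of genes tested. The edgeR, DESeq2 1.42.0 and limma 3.58.1 (voom) steps were tested on simulated data. The simulated libraries were drawn independently, without near-identical pairs or libraries that stand apart. They therefore do not show how reliable the calls are in the real libraries.

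The members and the gene lists were chosen with earlier results of these data known. COL3A1 and DCN were chosen because those results showed them to differ among the knockout libraries. Genes were named by a rule: PRMT6; up to 10 largest increases and 10 largest decreases among called genes that averaged 5 CPM or more in a group, had groups that do not overlap and were neither clone-named nor antisense nor small RNA genes; every tested gene of the retinoid, receptor, HOXA and HOXB lists; POU5F1, NANOG, SOX2, COL3A1 and DCN; the 2 called genes of smallest adjusted p in each other list; and genes called in both fits and without the libraries that stood apart. A few genes covered by this rule are not reported here. Most other genes are said to have been named after their values were seen. LIN28A, DUSP6 and CGA also lie outside the rule, and no rule chose them.

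Alternatives were RLE scaling, DESeq2, limma-voom, no filter and a stricter one (over 1 CPM in 3 libraries), the fit of 12 libraries, replicate numbers as a block, leaving out each library in turn, summing the near-identical pairs, leaving out or giving a term to the libraries that stood apart and, added after the data were seen, removing each library's GC trend.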

Additional observations from a re-analysis of the deposited data

How the results depend on the processing

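The 1336 calls numbered 6 in the fit of 12 libraries, 2515 with DESeq2, 0 with near-identical pairs summed, 7517 without the libraries that stood apart and 6295 with a term for them; RLE scaling, limma-voom, both filters and GC removal gave 977 to 1414. With the replicate number as a block 0 genes were called (3273 at an unadjusted edgeR p under 0.05). Deviations of same-numbered knockout libraries from their group means correlated at 0.589, -0.566 and -0.647. These signs follow from the numbers that untreated 3 and ATRA 2 carry, so whether numbers pair the samples cannot be told from them. Leaving out 1 library gave 26 to 2417 calls, with 27 without untreated 1, 67 without untreated 2, 949 without untreated 3, and 68, 2417 and 26 without ATRA 1, 2 and 3. The calls therefore depend on which library is left out. The groups do not overlap for any of the 1336 genes, so their sign when libraries are left out or summed is fixed by that choice and shows no stability. NR6A1, at 0.01 in the 6-library fit, was -0.78 without ATRA 2 (range -0.78 to 0.30 when 1 library was left out) and -0.91 without the libraries that stood apart. The interaction had 0 calls, 13 with DESeq2, 8 with no filter, 135 without control untreated 1 and 2 without control ATRA 2, a range of 0 to 135 when 1 library was left out, and 0 in the other settings run. Of 76 named genes called, the settings other than leaving out 1 library kept between 0 (pairs summed, or the block) and 76 (DESeq2, and both ways of treating the libraries that stood apart). With each library's GC trend removed 65 were kept.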
